A study of Mus musculus with 18 samples.

Results

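The 46 genes described here carry glucose into the cell, run it through glycolysis to pyruvate, and pass pyruvate on to lactate or to the mitochondrion, with the enzymes that store glucose as glycogen. They were chosen by name, by their place in the pathway. The rule used no measured value, but earlier results of these data were known when the genes were chosen. All 46 were found among the 35275 genes of the read-count table. The counts come from cell lines grown from mouse malignant peripheral nerve sheath tumors (MPNSTs), aggressive sarcomas of nerve. Tumors were made in wild-type 129 Sv/Jae mice by injecting the sciatic nerve with an adenovirus that carries Cas9, driven by the CMV promoter, and guide RNAs against Nf1 together with either p53 or Cdkn2a. Of the 6 lines, 3 are Nf1/p53 dKO and 3 are Nf1/Cdkn2a dKO (dKO, double knockout), so loss of Nf1 is common to all of them and no line carries Nf1 loss alone. Each line came from 1 tumor, had been passaged many times, was untreated, grew in DMEM with serum, antibiotics and sodium pyruvate, and was sequenced as 3 cultures. The age of the mice is not given in the sources used here. The comparison asks whether the genotype is accompanied by a difference in the RNA of these genes, and the line (the sum of its 3 cultures) was the unit, since cultures of 1 line share a tumor. In bulk RNA of cultured lines, fewer cells of a type and less RNA per cell cannot be told apart.

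Glucose enters through facilitative transporters and is trapped by hexokinase. Phosphofructokinase is the committed step, and its activator fructose 2,6-bisphosphate is made and broken down by the PFKFB enzymes. The later steps end with pyruvate kinase, lactate dehydrogenase turns pyruvate into lactate and back, and the monocarboxylate transporters carry lactate across the membrane with a proton. Pyruvate dehydrogenase kinases (PDKs) hold pyruvate out of the mitochondrial acetyl-CoA pool. Many steps have several isozymes that differ in tissue, kinetics and regulation, and tumors often keep glycolysis high with oxygen present.

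Library totals were 19560535 to 28312207 counts (median 23149777), and each line summed to 65206479 to 73065228 counts. Levels are given in CPM, counts scaled to a common library size after TMM normalization. The targeted gene p53 followed its label, with Trp53 at 58.7 to 94.1 CPM with p53 loss and 185 to 247 CPM with Cdkn2a loss. Cdkn2a RNA did not follow its label, at 42.9 to 363 CPM against 169 to 392 CPM, and neither value shows whether a small insertion or deletion had broken the gene. The 7 mesenchymal markers summed to 9773 to 23172 CPM, with Vim at 4727 to 10207 CPM, though Thy1 was at 7.02 CPM in Nf1/Cdkn2a dKO line 2 and at 467 CPM in Nf1/Cdkn2a dKO line 3. The 5 epithelial markers summed to 3.02 to 742 CPM, with Krt8 at 540.0 CPM in Nf1/p53 dKO line 2 and 601 CPM in Nf1/Cdkn2a dKO line 1 and Epcam at or under 0.764 CPM. The Schwann cell marker Sox10 stayed at or under 0.0990 CPM and Ngfr was at 64.3 CPM in Nf1/p53 dKO line 2 and at or under 1.139 CPM in the others. Of 8 skeletal muscle markers 6 were tested, all 6 had negative log2 fold changes, and Myf5 passed the test. Their summed level was 61.9 to 327 CPM with p53 loss and 0.75 to 10.3 CPM in the others, with the defining factor Myod1 at 1.75, 0.269 and 204 CPM in Nf1/p53 dKO lines 1 to 3 and 0 in every Nf1/Cdkn2a dKO line. Summed leukocyte markers were at 3.68 to 8.12 CPM and endothelial markers at 0.641 to 2.02 CPM. The muscle values are set beside the muscle-type isozymes further on.

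The upstream sequences of 4 genes at the lactate end are shown because these genes make lactate and carry it across the membrane, as 2 pairs of isoforms whose balance is compared further on. They are the 250 bases before a RefSeq transcription start (GRCm38.p6), printed 5′ to 3′ on the gene's strand. Capitals mark each ACGTG or its reverse complement CACGT, a form of the core of the hypoxia response element. The other form, GCGTG, was not marked or counted, and it occurs in the printed Slc16a1 and Ldhb windows. A CACGTG, the E-box bound by MYC family and carbohydrate-responsive factors, counts as a match on each strand, and so as 2 overlapping matches.
Slc16a1 (monocarboxylate transporter MCT1), chr3:104638414-104638663, plus strand: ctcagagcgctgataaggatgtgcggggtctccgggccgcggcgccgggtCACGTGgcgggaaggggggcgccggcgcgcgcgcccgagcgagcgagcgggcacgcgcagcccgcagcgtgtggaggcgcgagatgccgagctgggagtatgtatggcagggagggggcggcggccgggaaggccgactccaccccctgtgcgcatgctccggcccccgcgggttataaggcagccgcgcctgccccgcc
Slc16a3 (monocarboxylate transporter MCT4), chr11:120948817-120949066, plus strand: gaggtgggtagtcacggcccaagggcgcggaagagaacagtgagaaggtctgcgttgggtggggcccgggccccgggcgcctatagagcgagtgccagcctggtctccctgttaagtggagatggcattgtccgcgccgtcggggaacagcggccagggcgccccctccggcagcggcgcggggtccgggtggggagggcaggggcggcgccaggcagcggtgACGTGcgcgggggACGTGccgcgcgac
Ldha (lactate dehydrogenase A), chr7:46845554-46845803, plus strand: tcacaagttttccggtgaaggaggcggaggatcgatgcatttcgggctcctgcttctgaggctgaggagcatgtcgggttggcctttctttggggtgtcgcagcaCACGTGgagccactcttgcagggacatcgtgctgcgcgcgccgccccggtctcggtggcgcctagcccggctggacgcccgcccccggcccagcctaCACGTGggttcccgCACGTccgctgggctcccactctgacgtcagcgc
Ldhb (lactate dehydrogenase B), chr6:142507958-142508207, minus strand: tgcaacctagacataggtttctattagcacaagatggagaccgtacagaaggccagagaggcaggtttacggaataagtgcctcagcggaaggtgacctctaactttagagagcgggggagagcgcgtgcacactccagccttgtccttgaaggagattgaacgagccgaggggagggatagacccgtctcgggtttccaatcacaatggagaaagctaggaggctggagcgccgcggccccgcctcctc
In the printed windows Ldha held 5 matches and 2 E-boxes, Slc16a3 held 2 matches, Slc16a1 held 2 matches from 1 E-box, and Ldhb held 0. The window of another annotated Ldha start (chr7:46846832-46847081) held 0 matches. Over all 32851 RefSeq windows of this length 16.6% held at least 1 ACGTG, 6.02% held a CACGTG and 0.134% held 5 or more ACGTG matches. Windows were found for 43 of the 46 genes (63 windows, since some genes have several starts), and 24 of the 63, or 38.1%, held an ACGTG. A match is a description of the letters, and binding was not measured here. Pdp1, Slc2a3 and Slc2a4 had no window.

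Across the pathway a single gene passed the test between genotypes. Of the 46 genes 42 passed the filter on low counts, and 1 of the 42 was called by edgeR's quasi-likelihood test at an adjusted p under 0.05, against 1.8% of the 15207 genes tested (274 called, 1.16% of genes lower with Cdkn2a loss and 0.638% higher). Higher calls made up 35.4% of the 274, and 20.3% of 423 when libraries were scaled by total counts, which shifted the median log2 fold change of all genes to −0.16. The 4 that did not pass the filter were Hk3, Hkdc1, Fbp1 and Fbp2. At an unadjusted p under 0.05 there were 11 of the 42 (26.2%), and 3400 of all genes (22.4%). The median log2 fold change (Nf1/Cdkn2a dKO over Nf1/p53 dKO, so that negative values are lower with Cdkn2a loss) was −0.20 over the 42 and −0.02 over all genes, with 26 of the 42 values negative and 16 positive. All lines of one genotype lay beyond all lines of the other in 9 genes that were lower (Slc2a3, Slc2a4, Pfkm, Pfkfb3, Pfkfb4, Slc16a1, Slc16a3, Pgm2, Pygl) and 5 that were higher (Slc2a1, Hk2, Pfkfb2, Pkm, Ldhb), beside 16.6% and 14.8% of all genes tested, so that 33.3% of the 42 and 31.4% of all genes were apart in either direction. DESeq2 on the same 6 lines called 6 of the 44 genes to which it gave an adjusted p (13.6%, against 11.6% of all such genes): Slc2a3, Pfkfb3, Pfkfb4, Ldhb, Slc16a3 and Pgm2.

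**Figure D1:**
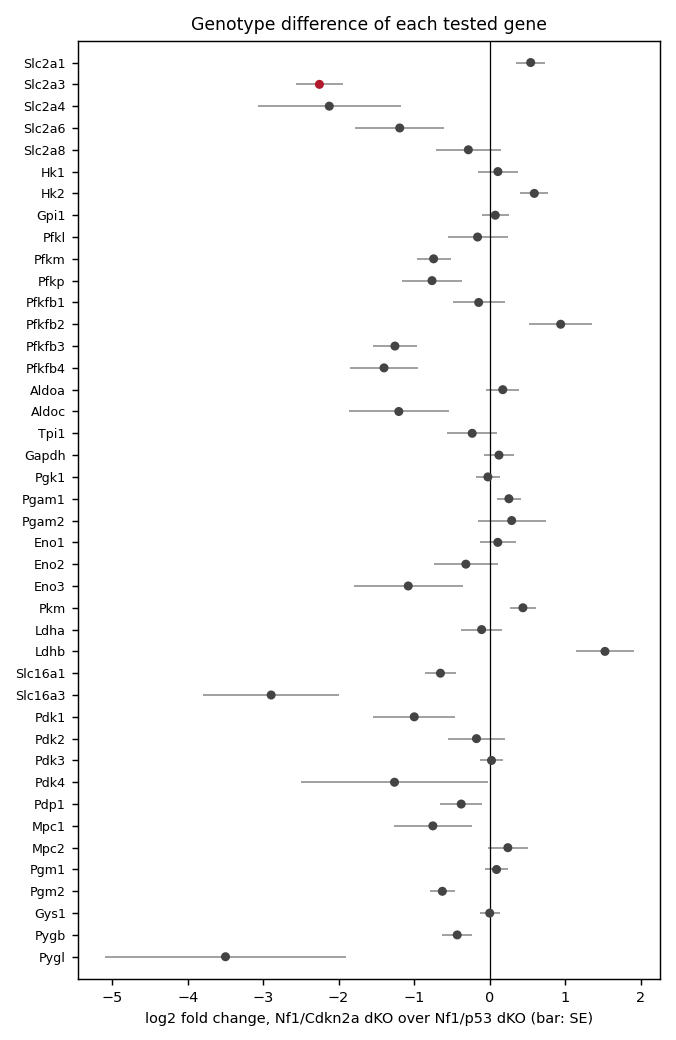
Log2 fold change (x axis, log2 units, bars are SE) between 3 Nf1/Cdkn2a dKO and 3 Nf1/p53 dKO lines for each of the 42 tested genes, in pathway order down the y axis. Slc2a3, at −2.26, is the only point drawn in red for an adjusted p under 0.05, and the bars of Pygl, Pdk4, Slc2a4 and Slc16a3 are the widest.

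The transporter that passed was Slc2a3 (GLUT3, the high-affinity glucose transporter known from neurons, chr6:122727809-122801640, minus strand, GRCm38). It stood at 11.3, 6.86 and 11.1 CPM in Nf1/p53 dKO lines 1 to 3 and at 2.13, 1.75 and 2.24 CPM in Nf1/Cdkn2a dKO lines 1 to 3. Every Nf1/p53 dKO line lay above every Nf1/Cdkn2a dKO line, and the log2 fold change was −2.26 ± 0.31 (SE, n = 3 lines each, adjusted p = 0.0361). Leaving out any 1 of the 6 lines kept the log2 fold change between −2.44 and −2.14 but moved the adjusted p above the threshold (0.0658 to 0.133). Slc2a1 (GLUT1, the basal transporter of most dividing cells) leaned the other way, at 80.0, 85.2 and 120.0 CPM against 127, 149 and 139.8 CPM (log2 fold change 0.54 ± 0.19, adjusted p = 0.163). Slc2a1 was the main transporter in every line, holding 80.2 to 86.4% of the summed level per kilobase of the 5 transporters in the Nf1/p53 dKO lines and 89.9 to 95.2% in the others, while Slc2a3 held 3.25 to 5.47% and 0.540 to 0.761%. Slc2a8 ranged from 4.90 to 11.8 CPM and Slc2a6 from 1.15 to 5.77 CPM, with the genotypes overlapping in each. The insulin-responsive transporter Slc2a4 (GLUT4) was close to absent, at 0.339 to 0.425 CPM with p53 loss and 0, 0.112 and 0.141 CPM in the others, where 0 counts allow up to 0.0433 CPM.

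Hexokinase in these lines was Hk1 and Hk2. Hk1, the broadly expressed mitochondrial form, was at 188, 146 and 253 CPM and at 182, 180.5 and 270.4 CPM, with the genotypes overlapping. Hk2, the inducible form found in muscle and in many tumors, was at 55.9, 61.7 and 59.9 CPM with p53 loss and at 67.6, 99.9 and 100.1 CPM with Cdkn2a loss, without overlap but short of the threshold (0.59 ± 0.18, adjusted p = 0.131). Per kilobase of exon, Hk1 led in all 6 lines and Hk2 made up 25.2 to 37.6% of hexokinase RNA with p53 loss and 34.6 to 44.1% with Cdkn2a loss. Using the longest transcript as the length, Hk2 made up 15.5 to 24.7% and 22.3 to 30.0%, and Hk1 still led in all 6. Hk3 was at or under 0.109 CPM and Hkdc1 at or under 0.540 CPM. Gpi1, the isomerase that follows, was at 311 to 461 CPM and overlapped.

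**Figure D2:**
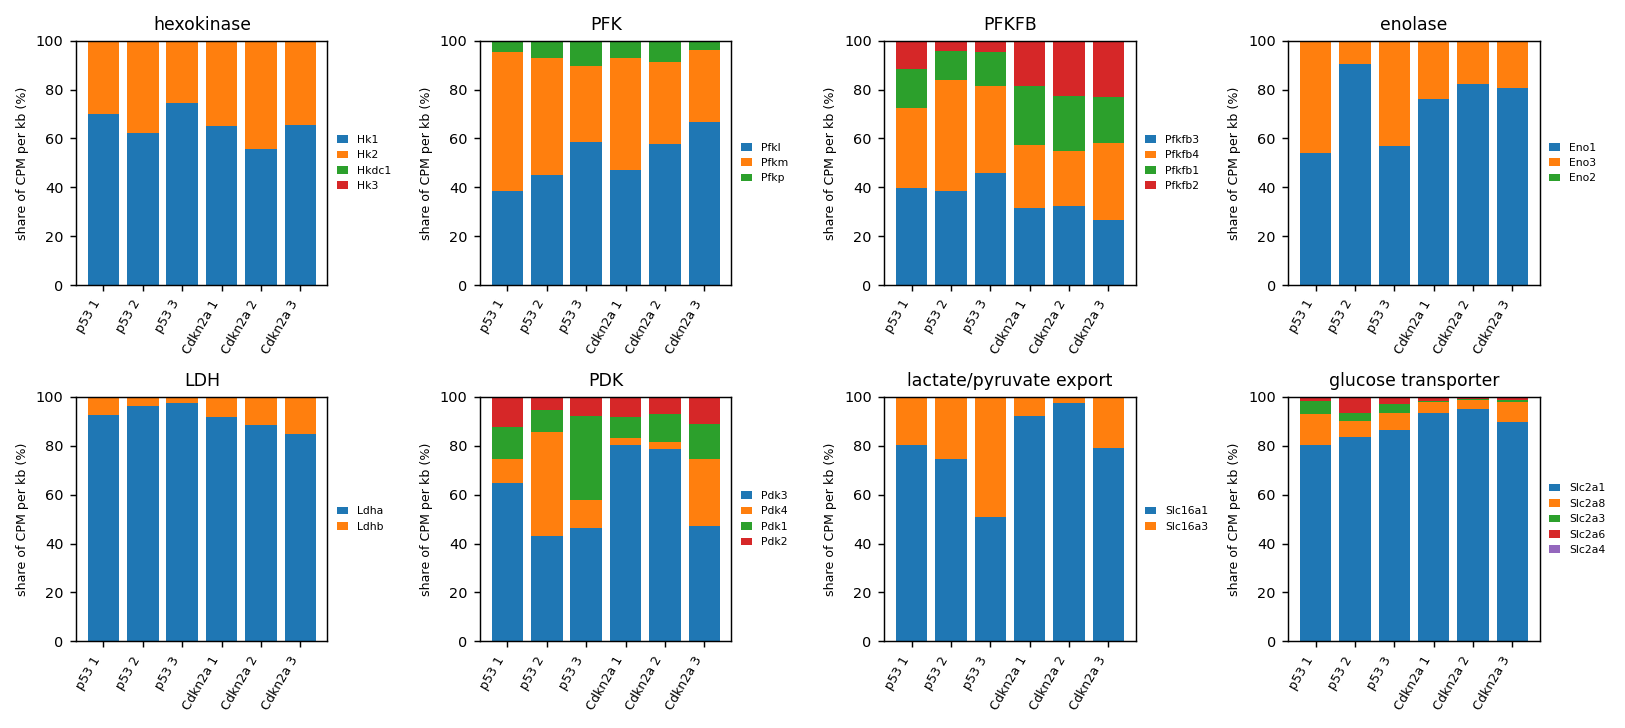
Share of each isozyme (y axis, percent of the summed CPM per kb of its family) in 6 lines, for 8 families. Slc2a1, Hk1, Eno1, Ldha, Pdk3 and Slc16a1 lead in all 6 lines, while Pfkl and Pfkm, and Pfkfb3 and Pfkfb4, change places between lines.

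Phosphofructokinase was split between Pfkl, the liver-type subunit, and Pfkm, the muscle-type subunit. Pfkm was at 89.8, 65.6 and 63.8 CPM with p53 loss and at 49.7, 32.8 and 48.6 CPM with Cdkn2a loss (log2 fold change −0.74 ± 0.22, adjusted p = 0.125). The lines did not overlap, and the summed muscle markers were higher in every Nf1/p53 dKO line as well. In Nf1/p53 dKO lines 1 to 3 that sum was 61.9, 62.6 and 327 CPM, so Pfkm was lowest where the sum was highest. Ckm, Acta1 and Tnnt3 overlapped between genotypes. The part of muscle-like cells in the Pfkm difference was not tested. Pfkl varied more between lines than between genotypes, at 122, 124 and 241 CPM against 103, 113 and 221 CPM, the third line of each genotype being the highest. Per kilobase of exon Pfkl led in 4 of 6 lines, and Pfkm led in Nf1/p53 dKO lines 1 and 2 with 56.7 and 47.8%. Using the longest transcript as the length, Pfkl led in all 6. Pfkp, the platelet type, was 25.0 to 38.5 CPM in 5 lines and 85.1 CPM in Nf1/p53 dKO line 3, and it shares 748 exonic bases with Pitrm1 on the other strand.

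The PFKFB enzymes set the level of fructose 2,6-bisphosphate, and in 3 of the 4 the genotypes were fully apart, as in 31.4% of all genes tested, and none passed edgeR's threshold. Pfkfb3, the isozyme with the strongest kinase activity (chr2:11471433-11554077, minus strand), was at 18.7, 32.8 and 17.7 CPM with p53 loss and at 10.8, 9.74 and 8.41 CPM with Cdkn2a loss. Its log2 fold change was −1.25 ± 0.29 (adjusted p = 0.0804 by edgeR). Pfkfb4 was at 9.95, 24.8 and 8.80 CPM and at 5.71, 4.34 and 6.46 CPM (−1.40 ± 0.45, adjusted p = 0.144), and in Pfkfb3 and Pfkfb4 alike Nf1/p53 dKO line 2 was the highest. Pfkfb2, the heart-type isozyme, went the other way, at 5.14, 3.31 and 1.77 CPM against 6.10, 6.48 and 7.07 CPM (0.94 ± 0.42, adjusted p = 0.246), and it shares 154 exonic bases with Yod1 on the opposite strand, which was at 5.55 to 11.3 CPM. Pfkfb1 overlapped between genotypes at 2.84 to 5.47 CPM. As a family, Pfkfb3 and Pfkfb4 together were the larger part of PFKFB RNA per kilobase in every line, and Pfkfb2 was 4.06 to 11.4% of it in the Nf1/p53 dKO lines and 18.5 to 23.2% in the others. The gluconeogenic bisphosphatases Fbp1 and Fbp2, which reverse the step, were at or under 0.332 CPM.

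The middle of the pathway was abundant, and none of its genes was called. Aldoa, the aldolase that supplied over 99% of aldolase RNA per kilobase in every line, was at 967, 949 and 1504 CPM and at 1168, 1382 and 1309 CPM. Gapdh (2642 to 4074 CPM), Pgk1 (838 to 1115 CPM), Tpi1 (368 to 852 CPM) and Pgam1 (291 to 422 CPM) overlapped in the same way, with log2 fold changes of 0.12 (−0.013 with total-count scaling), −0.02, −0.23 and 0.26. Aldoc stayed at 0.678 to 5.17 CPM. The muscle mutase Pgam2 was at 2.60 to 6.62 CPM and made up 1.63 to 3.57% of the mutase RNA per kilobase. Per kilobase of the exon union Gapdh and Pkm were the 2 highest of the 46 genes, with means of 850.2 and 849.8 CPM per kb over the lines, followed by Pgk1 at 440.2, Aldoa at 417 and Ldha at 406. These levels and their order depend on the length used. The exon union was 4133 bases for Gapdh and 5001 for Pkm, and the longest transcript 3289 and 2432 bases.

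Enolase differed widely between lines of 1 genotype. Eno3, the muscle-type enolase, was at 367, 56.3 and 589 CPM in Nf1/p53 dKO lines 1 to 3, a 10.5-fold range, and at 192, 147 and 141 CPM with Cdkn2a loss. The genotypes overlapped (log2 fold change −1.08 ± 0.72, adjusted p = 0.421). The 2 high lines differed in muscle regulators, Myod1 being at 1.75 CPM in line 1 and 204 CPM in line 3 and Des at 21.6 and 86.6 CPM, and the low line 2 held Myod1 at 0.269 CPM and Des at 1.30 CPM. Myf5 was at 28.0, 24.2 and 27.7 CPM in Nf1/p53 dKO lines 1 to 3. The other tested muscle markers were highest in line 2, where Eno3 was low. Acta1 was at 4.86, 28.5 and 4.44 CPM in lines 1 to 3, and Tnnt3 at 4.01, 6.55 and 2.698 CPM. Ckm was at 1.43, 1.499 and 0.886 CPM, with lines 1 and 2 close together. The 8 muscle markers summed to 61.9, 62.6 and 327 CPM in lines 1 to 3, highest in line 3, where Eno3 was highest too. Single markers thus differed in their order across these lines. The part of muscle-like cells in the Eno3 values was not tested. Eno1, the general enolase, was at 1336, 1681 and 2401 CPM against 1890.0, 2118 and 1832 CPM. Eno1 led in all 6 lines with 53.9 to 90.4% per kilobase of exon. These shares depend on the length used, since Eno3 was 45.8% of enolase RNA in Nf1/p53 dKO line 1 with the exon union and 26.2% with the longest transcript. Eno1 counts are also uncertain because Eno1b matches its coding sequence at 99.4% identity and carried 206527 reads beside 777834. Eno2, the neuronal enolase, was at 2.17 to 6.33 CPM.

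Pyruvate kinase was Pkm, at 3677, 3059.8 and 4079 CPM with p53 loss and at 4425, 5085 and 5172 CPM with Cdkn2a loss. The lines did not overlap and the difference was small (0.44 ± 0.17, adjusted p = 0.189). Gene counts do not separate the M1 and M2 splice forms.

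**Figure D3:**
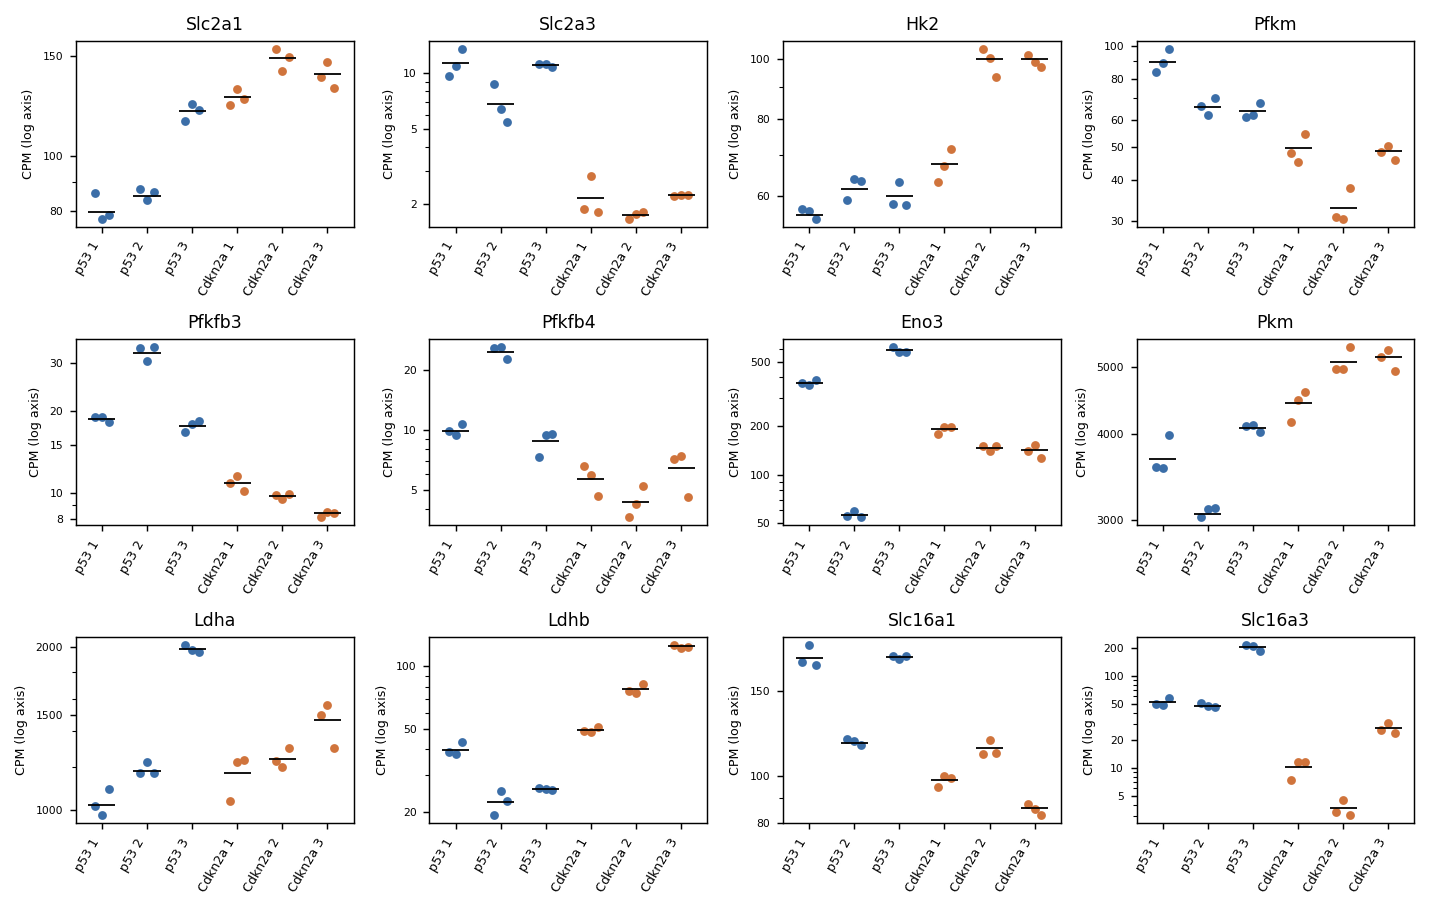
CPM (log y axis) of 12 genes in each culture (points; blue, Nf1/p53 dKO; orange, Nf1/Cdkn2a dKO) of 6 lines, with the line's value as a black bar. Cultures of a line lie close together compared with the gap between lines, and Slc2a3, Pfkfb3, Slc16a3 and Ldhb do not overlap between genotypes.

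At the lactate step the 2 subunits differed. Ldha, the muscle-type subunit that favors lactate formation, was at 1022, 1180.1 and 1978 CPM with p53 loss and at 1173, 1245 and 1466 CPM with Cdkn2a loss, with the genotypes overlapping (−0.11 ± 0.27, adjusted p = 0.844). Ldhb, the heart-type subunit that favors pyruvate (chr6:142490249-142507957, minus strand), was at 39.6, 22.2 and 25.8 CPM and at 49.7, 77.8 and 125 CPM. Every Nf1/Cdkn2a dKO line was above every Nf1/p53 dKO line, with the largest positive log2 fold change of the 42 genes (1.53 ± 0.38, adjusted p = 0.0904 by edgeR). Ldha remained the main subunit, but Ldhb was 2.68 to 7.55% of LDH RNA per kilobase with p53 loss and 8.19 to 15.3% with Cdkn2a loss. The mean share of Ldha differed by −7.02 percentage points between genotypes (exact permutation, two-sided p = 0.1, the smallest that 3 lines against 3 can give).

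At the membrane both lactate transporters had lower values in the Nf1/Cdkn2a dKO lines, and neither passed edgeR's threshold. Slc16a3 (MCT4, the exporter of highly glycolytic cells, chr11:120948480-120960868, plus strand) was at 51.5, 47.5 and 205 CPM with p53 loss and at 10.2, 3.65 and 27.0 CPM with Cdkn2a loss. No line of one genotype reached the other, yet the spread within a genotype was 4.32-fold and 7.41-fold, and the log2 fold change of −2.89 ± 0.90 missed the threshold by edgeR (adjusted p = 0.131) and passed it by DESeq2 (adjusted p = 0.00347). The log2 fold change was −1.86 without Nf1/p53 dKO line 3 and −3.86 without Nf1/Cdkn2a dKO line 3 (adjusted p = 0.238 and 0.157 by edgeR). Slc16a1 (MCT1) was at 176, 117 and 176 CPM and at 98.3, 114 and 86.2 CPM (−0.65 ± 0.21, adjusted p = 0.139), with lines 2 of the 2 genotypes close together. Slc16a1 led in all 6 lines per kilobase of exon (5 of 6 with the longest transcript), and Slc16a3 was 49.2% of the pair in Nf1/p53 dKO line 3 and 2.59% in Nf1/Cdkn2a dKO line 2. In Nf1/p53 dKO line 3, where Slc16a3 was highest, Ldha, Pfkl, Pfkp, Pdk1, Aldoa, Tpi1 and Eno1 were also the highest of the 6 lines. So were Gpi1, Pgk1, Eno3, Slc16a1, Pdp1, Mpc1 and Pgm2. Other tested genes, among them Gapdh, Pkm, Pgam1, Hk1, Hk2, Slc2a1 and Pfkm, were highest in other lines. All genes were not looked at in this way, so these values do not show a trait of the pathway. The summed level of 5 proliferation markers was also highest in Nf1/p53 dKO line 3, at 2297 CPM against 1081 to 1397 CPM in the other 5 lines. Among the 5, Cdk1 was highest in Nf1/Cdkn2a dKO line 3, at 259 CPM against 237 CPM. The part of growth rate in these values was not tested.

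Among the PDKs, which act between glycolysis and the mitochondrion, Pdk3 RNA led in all 6 lines (43.3 to 80.3% per kilobase) and was at 34.6 to 43.5 CPM. In Nf1/p53 dKO line 2 the lead was narrow, with Pdk3 at 43.3% and Pdk4 at 42.5%. The activity of the kinases was not measured here. Pdk4, the fasting-induced kinase, varied widely among the lines of each genotype, at 8.25, 58.6 and 11.6 CPM and at 2.18, 1.96 and 28.6 CPM, ranges of 7.1-fold and 14.6-fold. Pdk1, a hypoxia-inducible kinase, was at 24.5, 27.1 and 78.8 CPM and at 14.0, 18.2 and 33.0 CPM (−0.998 ± 0.54, adjusted p = 0.328). Pdk2 was at 4.41 to 10.5 CPM. The phosphatase Pdp1 (13.7 to 27.5 CPM) and the pyruvate carrier subunit Mpc2 (14.0 to 27.5 CPM) overlapped. Mpc1, the other carrier subunit, was at 0.635 to 2.82 CPM, and its 576 reads are uncertain because the pseudogene Mpc1-ps carried 1177 reads and matches 258 of its coding bases exactly.

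Glycogen genes were reported by identifier, since the table and GENCODE M21 exchange 2 symbols. ENSMUSG00000029171, the table's Pgm1, was at 49.0 to 65.5 CPM and overlapped. ENSMUSG00000025791, the table's Pgm2 and GENCODE's Pgm1, the phosphoglucomutase that joins glucose 6-phosphate to glycogen, was at 39.2, 41.9 and 46.4 CPM with p53 loss and at 23.2, 28.2 and 31.2 CPM in the others (−0.63 ± 0.17, adjusted p = 0.0992 by edgeR), with 398 exonic bases shared with Itgb3bp on the opposite strand. The synthase Gys1 had the smallest log2 fold change of the 42 genes (0.0011), at 48.8 to 59.6 CPM. Pygb, the brain-type phosphorylase, was 89.7 to 100% of the phosphorylase RNA per kilobase. Pygl, the liver type, was at 2.55, 9.93 and 1.99 CPM and at 0, 0.0721 and 1.20 CPM, the lowest log2 fold change of the 42 genes, at −3.50 ± 1.60 (adjusted p = 0.258), on 198, 702 and 144 counts against 0, 5 and 77.

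Differences between lines of the same genotype were the rule. In an edgeR test on the cultures 40 of 43 of these genes differed among the Nf1/p53 dKO lines (73.2% of all genes) and 30 of 43 among the Nf1/Cdkn2a dKO lines (56.8% of all genes). The median ratio of the highest to the lowest line was 1.79 with p53 loss and 1.33 with Cdkn2a loss. Hk2, Gys1 and Slc2a4 were the genes that did not pass among the Nf1/p53 dKO lines. Line 3 was the highest line for 20 of the 42 genes with p53 loss and for 26 of the 42 with Cdkn2a loss. The same count over all genes was not made, so these counts do not show a trait of the pathway.

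**Figure D4:**
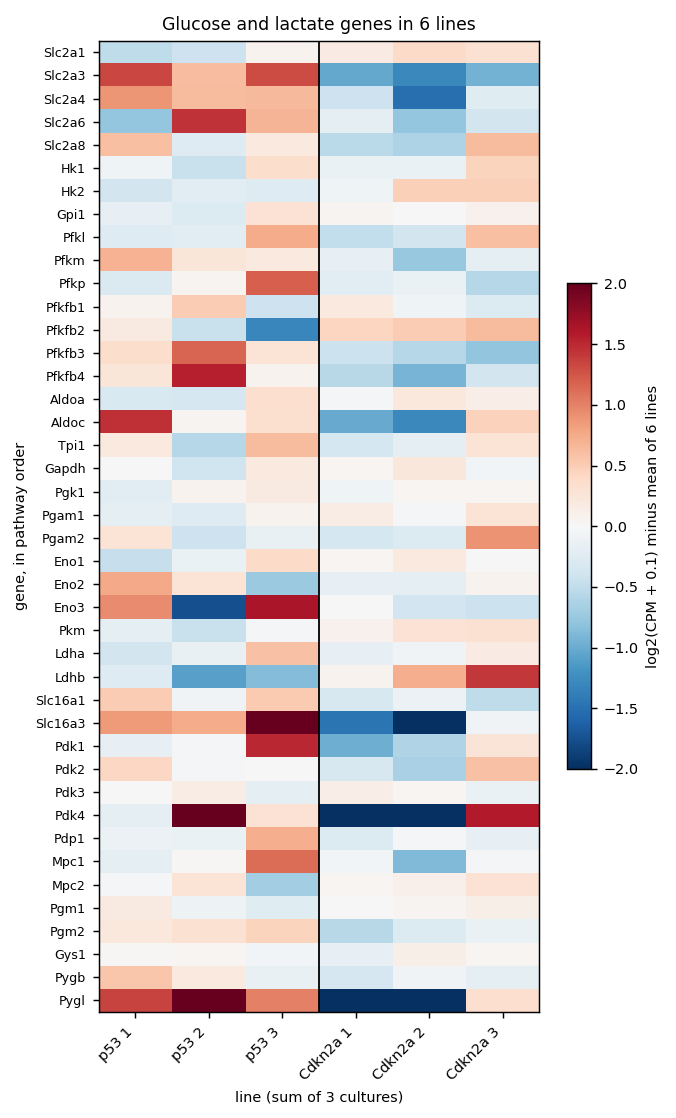
Log2(CPM + 0.1) of each of the 42 tested genes (y axis, pathway order) in 6 lines (x axis), as the difference from the gene's mean over the lines, with colors limited to 2 either way. Slc2a3 is red on the left and blue on the right, and so is Slc16a3 except for a nearly white Nf1/Cdkn2a dKO line 3, Ldhb is the reverse (pale in Nf1/Cdkn2a dKO line 1), and Pdk4 and Eno3 change color between lines of 1 genotype.

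Over the 11 isozyme families the mean share of the leading isozyme was compared between genotypes by exact permutation, which for 3 lines against 3 cannot give a p below 0.1. In 9 families the same isozyme led in all 6 lines, PFK and PFKFB being the exceptions. In this exact permutation test 4 families stood at p = 0.1, with an adjusted p of 0.275: Ldha and Pfkfb3 had lower shares with Cdkn2a loss (by −7.02 and −11.2 percentage points), and Slc2a1 and Pygb had higher ones (by 9.52 and 4.52 percentage points).

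Genes around these steps, taken from 7 lists of the same pathways, gave no call by edgeR. Of 66 listed genes 49 were tested and 0 passed edgeR's adjusted threshold, with 11 at an unadjusted p under 0.05, which is 22.4% of them and 22.4% of all genes tested. DESeq2 on the 6 lines called 7 of the 54 to which it gave an adjusted p (Slc2a13, Bpgm, Pck2, Emb, Pgm2l1, Sord and Gpd1l), or 13.0% beside 11.6% of all such genes. Among the other glucose transporters all 4 tested had positive log2 fold changes, from Slc2a9 at 0.82 to Slc2a13, the proton-coupled inositol transporter, at 1.64, 2.45 and 1.15 CPM against 5.97, 6.10 and 19.4 CPM (2.59 ± 0.60, adjusted p = 0.078). Bpgm, which makes 2,3-bisphosphoglycerate, was at 58.7, 37.6 and 18.9 CPM against 148, 119 and 212 CPM (2.06 ± 0.44, adjusted p = 0.0655), and Pck2, the mitochondrial PEP carboxykinase, was at 40.2, 77.1 and 73.2 CPM against 27.9, 26.6 and 33.3 CPM (−1.12 ± 0.27, adjusted p = 0.0847). Emb, an accessory protein of the monocarboxylate transporters, was at 16.9, 56.1 and 14.1 CPM against 2.34, 5.31 and 2.64 CPM (−3.08 ± 0.66, adjusted p = 0.0657), while Bsg, the main accessory protein of MCT1 and MCT4, was at 592 to 925 CPM, and Slc16a7 had the highest log2 fold change of that list, at 0.39. All 6 tested genes of fructose and glycerol metabolism had negative log2 fold changes, from Gpd2 at −0.01 to Sord, sorbitol dehydrogenase, at −1.29 ± 0.24 (adjusted p = 0.0528). In the pyruvate dehydrogenase list 3 of 7 values were positive, from Pdpr at −0.96 to the catalytic subunit Pdha1 at 0.40. In the glycogen list 7 of 14 were positive, from Ppp1r3c at −1.47 to Pgm2l1 at 0.86, and in the glucose-sensing list all 4 were, from Arrdc4 at 0.17 to Mlxip at 0.44.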

How the data were processed

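RNA-seq gave 18 libraries, 3 cultures of each of 6 lines. Whole-number counts of reads for each gene, not normalized, were deposited by the authors. Per the submitters' processing notes STAR 2.5, CASAVA and DESeq2 1.14.1 were used with GRCm38/mm10; the counting tool, its annotation and its strand setting are not given in the sources used here, so reads of overlapping genes on opposite strands cannot be told apart. The 3 cultures of each line were added up, since they share a tumor. Low genes were removed by filterByExpr (count at least 10, total at least 15), and the rest were scaled with TMM and tested with edgeR 4.0.16 (quasi-likelihood, Benjamini-Hochberg over all genes; R 4.3.3), each SE being the fold change divided by the root of the F statistic. Lines of a genotype were compared with the cultures as repeats. Isozyme shares divided counts by the exon union in GENCODE M21. Alternatives used DESeq2 1.42.0 and limma 3.58.1. A count of 0 allows up to 3 counts, for counting error only. Near-identical copies were sought with BLAST+ 2.17.0 (95% identity over 50% of the coding sequence). The fits were tested on simulated data. The genes and lists were chosen with earlier results of these data known. Genes named with every line's value were the called ones, the leading and next isozymes, and the 3 highest and 3 lowest fold changes, then from each surrounding list the called genes and the extremes; others are given by their range or were added after their values were seen.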

Additional observations from a re-analysis of the deposited data

Results flagged for a closer look

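Among the 84 sets of 9 cultures (42 genes in each genotype), 3 held a culture whose gap to its nearest neighbor was a larger share of the range of the set than Dixon's 95% critical value. For independent values chance alone gives about 1 in 20. The 9 cultures of a set come from 3 lines and are not independent, so that rate need not hold here. Slc2a3 was at 2.82 CPM in culture 2 of Nf1/Cdkn2a dKO line 1, with the next culture at 2.23 CPM. Slc2a4 was at 1.04 CPM in culture 1 of Nf1/p53 dKO line 1, with the next at 0.582 CPM. Pfkfb1 was at 6.07 CPM in culture 2 of Nf1/Cdkn2a dKO line 1, with the next at 3.97 CPM.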

How the results depend on the processing

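Of the 42 genes 40 had a value under all 17 alternatives tried, of which 24 kept their direction and 16 changed it at least once. Pygl and Slc2a4 kept theirs in the 16 and 13 alternatives that gave them a value. The called gene, Slc2a3, kept its direction throughout. Treating cultures as separate samples gave 6096 calls over all genes and 21 over the pathway genes (41 tested) with edgeR, 7224 and 24 with DESeq2 (46 tested, 22 of the calls among the 42), and 2173 and 12 with limma-voom and the line as a random effect (41 tested), and DESeq2 on 6 lines gave 2046 and 6. The cause of the DESeq2 gap was not tested. Total-count scaling gave 423 calls and a median log2 fold change over these genes of −0.35, and no setting of scaling or filter changed the single call. Leaving out 1 line gave 0 to 172 calls over all genes, 0 of these genes, and medians of −0.42 to −0.10; Slc2a3 then had adjusted p values above the threshold, with fewer lines compared.
Line numbers did not pair the lines (correlations of −0.12, −0.13 and −0.08 between same-numbered lines), and the line number as a replicate block gave 0 calls over all genes, 2740 genes at an unadjusted p under 0.05 and 0 of these genes (Slc2a3 adjusted p = 0.105). The culture number as a block with limma-voom (median correlation −0.01) gave 2012 and 11 calls.
With 1 line left out the fold change moved over 1.5 times without a change of direction or call in Slc2a6 (−0.57), Pfkfb4 (−0.76) and Pygl (−2.40) without Nf1/p53 dKO line 2, Eno3 (−0.40), Slc16a3 and Pdk1 (−0.24) without Nf1/p53 dKO line 3, Pygl (−2.91) without Nf1/Cdkn2a dKO line 1, Slc2a4 (−1.53) without Nf1/Cdkn2a dKO line 2, and Aldoc (−2.02), Slc16a3, Pdk4 (−3.65) and Pygl (−6.95) without Nf1/Cdkn2a dKO line 3. The largest fold change whose direction changed was that of Pdk4 (−1.26), which turned only without Nf1/p53 dKO line 2. Gys1 went to −0.010 with edgeR and −0.0083 with DESeq2 on cultures, −0.020 with limma-voom, −0.045 with upper-quartile scaling, −0.13 with total counts, −0.015 with at least 10 counts in every line, −0.0034 with the line block and −0.021 with the culture block. With total counts Hk1 was −0.032, Gpi1 −0.063, Gapdh −0.013, Eno1 −0.026, Pdk3 −0.11 and Pgm1 −0.044, and Pdk3 was −0.021 with upper-quartile scaling. Leaving out 1 line ranged from −0.068 to 0.37 for Eno1, −0.63 to 0.063 for Eno2, −0.0096 to 0.27 for Gapdh, −0.021 to 0.27 for Gpi1, −0.054 to 0.089 for Gys1, −0.10 to 0.34 for Hk1, −0.29 to 0.24 for Ldha, −0.62 to 0.066 for Pdk2, −0.055 to 0.12 for Pdk3, −3.65 to 0.15 for Pdk4, −0.35 to 0.13 for Pfkfb1, −0.59 to 0.25 for Pfkl, −0.24 to 0.52 for Pgam2, −0.13 to 0.070 for Pgk1 and −0.48 to 0.079 for Tpi1. The difference in the Ldha share was −3.65 points without length scaling, and that of Pgam1 ranged from −0.36 to 0.61 points with a line left out. The genes that differed among lines were 35 to 37 and 26 to 28 with 1 culture left out.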
